A study of Rattus norvegicus with 288 samples.

Results

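The 8 genes described here are liver genes of glucose production and of the insulin response: Pck1, Sds, Ppargc1a, Foxa2, Igfbp1, Irs2, Igf1 and Noct. They were chosen by name out of 14217 genes that a whole-genome rat array measured under a single gene symbol. Earlier results of these data were known at that choice, so shares of these genes called beside all genes are descriptions and not tests. Where a gene had more than 1 probe set (a set of short probes read as 1 value), the brightest in the tissue stood for it. Levels are log2 signals of the array, so a difference of 1 is a doubling. The 96 animals were male Sprague-Dawley rats about 8 weeks old, outbred laboratory rats with a catheter for infusion. Every rat was infused over 30 min with oxaliplatin at 15 mg/kg, a platinum drug that crosslinks DNA, or with D5W, dextrose in water, which is its vehicle. Each rat then took an oral dose: sunitinib at 5 mg/kg or its vehicle sterile water, or sorafenib at 25 mg/kg or its vehicle F68, a mixture with the detergent Pluronic F68. Both are inhibitors of receptor tyrosine kinases used against cancer. Liver, kidney and heart were taken 1, 6 or 24 h after dosing, from 4 rats a group. This gave 24 groups a tissue, 72 groups and 288 arrays in all, of which 286 were used. Rats given water or sunitinib were dosed on one day and rats given F68 or sorafenib on another, so the oral vehicle and the dosing day cannot be told apart. Oxaliplatin was itself made up in D5W, so the rats of both infusions received dextrose.

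In the fed state insulin holds back the transcription of glucose-producing genes, mainly by keeping FoxO factors out of the nucleus. In fasting, glucagon acts through cyclic AMP and the factor CREB, and glucocorticoids act through their own receptor, to raise the same genes. Pck1 (phosphoenolpyruvate carboxykinase) makes the first committed step of gluconeogenesis, and Sds (serine dehydratase) feeds serine carbon into it. Ppargc1a encodes the coactivator PGC-1 alpha, and Foxa2 encodes a pioneer factor of hepatocytes. Igfbp1 encodes a secreted protein that binds insulin-like growth factors, and Irs2 encodes an adaptor of the insulin receptor. Igf1 is the growth factor itself, which the liver releases in response to growth hormone. Noct (nocturnin) is a rhythmic gene of the circadian clock's output.

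The 3 promoters below, each the 250 bases before the start, are shown because these members differed in the liver and carry a named regulatory element of insulin or cyclic AMP. RefSeq sequences of the rat assembly GRCr8 were found for 6 of the 8 members. Each of the 3 is written 5′ to 3′ on the plus strand, and capitals mark the element. In Igfbp1 (chr14:86261027-86261276) the capitals are CAAAACA, the core of the insulin response sequence, 121 to 115 bases before the start. In Pck1 (chr3:182348322-182348571) they are TTACGTCA, a variant of the cyclic AMP response element, 93 to 86 bases before it. In Ppargc1a (chr14:63634058-63634307) they are TGACGTCA, the cyclic AMP response element itself, 181 to 174 bases before it.
Igfbp1: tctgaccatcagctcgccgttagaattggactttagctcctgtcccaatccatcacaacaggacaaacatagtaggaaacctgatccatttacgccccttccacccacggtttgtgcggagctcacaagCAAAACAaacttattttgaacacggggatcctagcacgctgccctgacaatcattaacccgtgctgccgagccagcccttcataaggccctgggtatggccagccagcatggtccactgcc
Pck1: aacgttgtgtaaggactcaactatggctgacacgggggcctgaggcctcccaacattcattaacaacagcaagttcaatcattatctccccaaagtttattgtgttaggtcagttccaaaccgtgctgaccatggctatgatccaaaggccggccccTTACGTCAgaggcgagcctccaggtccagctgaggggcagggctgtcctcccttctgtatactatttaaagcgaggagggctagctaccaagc
Ppargc1a: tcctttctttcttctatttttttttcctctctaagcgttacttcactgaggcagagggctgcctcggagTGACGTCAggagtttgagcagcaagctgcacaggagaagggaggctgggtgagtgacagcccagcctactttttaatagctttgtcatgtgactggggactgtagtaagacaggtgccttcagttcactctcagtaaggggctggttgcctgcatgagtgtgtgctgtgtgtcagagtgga
On both strands, CAAAACA stood in 5.46% of the 33469 promoters of the same length, TTACGTCA in 0.75% and TGACGTCA in 1.59%. The Igf1 promoter also held CAAAACA, 67 to 61 bases before the start. A match is a description of the letters and says nothing of binding in these rats.

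Arrays carry no read depth, so the number of arrays limits the precision. Liver markers had a median between 14.7 and 14.87 log2 on the 95 liver arrays used, kidney markers between 12.57 and 13.18 on the kidney arrays and heart markers between 14.3 and 14.53 on the heart arrays. A liver and a kidney array of D5W then sorafenib at 24 h (replicates 1 and 4) each carried the markers of the other organ and were left out. The 3 other liver arrays of that sorafenib group were kept, but they stood apart, as given with their results. Liver markers reached 10.03 on a kidney array and 8.59 on a heart array. In whole tissue, fewer cells of a type and less RNA per cell cannot be told apart.

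In rats given no drug, some members were highest in liver and others in kidney or heart. These are levels of 24 vehicle-dosed D5W rats a tissue, described without a test, and whether the authors normalized the tissues together is not stated. Kidney arrays had medians of 7.32 to 7.81, above those of liver (6.66 to 6.78) and heart (6.63 to 6.69), so the percentile among all probe sets of the tissue is given where the order depends on it. These medians and percentiles are taken over all arrays used of the tissue, drug-treated rats included, and not over the vehicle rats alone. Igf1 stood at a median of 14.34 in liver (14.2 to 14.49), against 11.15 in heart (10.63 to 11.64) and 10.6 in kidney (9.78 to 11.46). The liver values of Igf1 did not overlap with those of the other tissues, while heart and kidney overlapped. Foxa2 stood at 9.99 in liver (8.76 to 10.92), 4.77 in kidney (4.5 to 5.1) and 4.4 in heart (4.24 to 4.72), below the expression filter in both of the latter. Pck1 was high in both gluconeogenic organs, with a median of 14.1 in kidney (13.74 to 14.35) and 13.81 in liver (12.71 to 13.99), which overlapped, and stood at 4.83 in heart (4.52 to 5.15). Igfbp1 ran the same way, at 10.59 in liver (7.5 to 12.2), 9.83 in kidney (9.13 to 10.5) and 4.97 in heart (4.68 to 5.2). The liver range of Igfbp1 enclosed the kidney range. Sds stood at 9.61 in liver (7.91 to 10.82), 7.69 in kidney (7.2 to 8.13) and 6.78 in heart (6.6 to 6.98), with overlap between liver and kidney. The coactivator Ppargc1a was lowest in liver, at 10.69 in kidney (10.46 to 10.9), 9.84 in heart (8.97 to 10.39) and 7.27 in liver (6.64 to 8.14), where no ranges overlapped. Its percentile was 89.9 in kidney and 90.1 in heart, so no order of these is read, and 61.5 in liver. Irs2 stood at 8.61 in kidney (7.92 to 9.54), 7.67 in liver (6.89 to 8.48) and 7.53 in heart (6.98 to 7.98), and liver and heart overlapped over most of their ranges. The percentiles of Irs2 were 68, 66.2 and 64.2 in that order. Noct stood at 8.97 in kidney (8.29 to 9.8), 8.25 in heart (7.41 to 9.14) and 6.67 in liver (5.73 to 9.82). The liver range of Noct was the widest of its 3 tissues and enclosed the kidney range, and its percentile was 74.8 in kidney, 74.6 in heart and 58.1 in liver. All 8 members passed the expression filter in liver, 7 in kidney and 5 in heart.

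**Figure D1:**
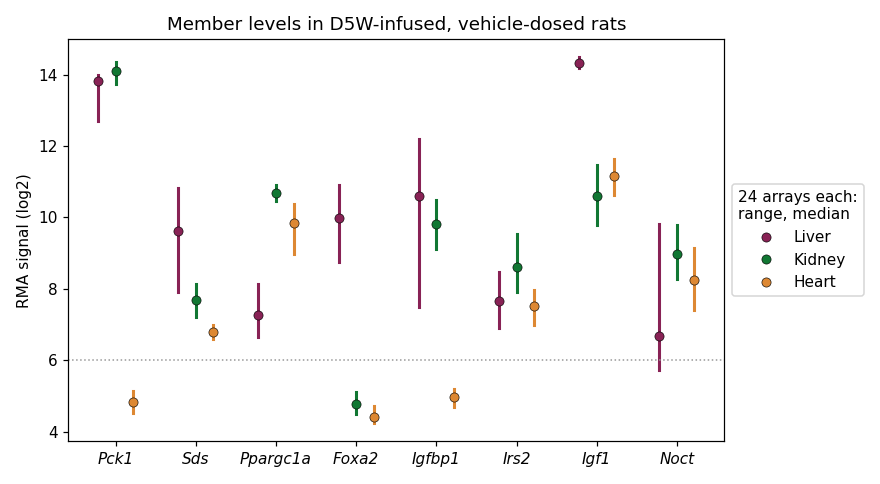
Log2 level of the 8 member genes in liver, kidney and heart of vehicle-dosed rats infused with D5W; each point is the median and each line the range of 24 arrays, and the dotted line marks the expression filter. Igf1 and Foxa2 stand highest in liver, Pck1 and Igfbp1 in liver and kidney, and Ppargc1a stands lowest in liver; kidney arrays as a whole have higher medians (7.32 to 7.81 against 6.63 to 6.69 in heart).

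At 1 h the liver showed higher Igfbp1 and Noct and lower Foxa2 after oxaliplatin. Oxaliplatin was compared with D5W over both oral vehicles, 8 arrays against 8, and p-values are Benjamini-Hochberg adjusted p-values of limma over all 11618 genes tested, with SE after ±. At 1 h 3 of the 8 members passed an adjusted p of 0.05, beside 3.46% of all genes. The Igfbp1 level ran from 9.57 over a median of 11.11 to 12.2 with D5W, and from 11.47 over 12.56 to 13.82 with oxaliplatin. The upper D5W values overlapped the lower oxaliplatin values. Igfbp1 was 3.08-fold higher (log2 difference 1.62 ± 0.42, adjusted p = 0.0116), and the call was lost without D5W then water replicate 2, the lowest array (1.40, adjusted p = 0.0527). Noct ran from 5.91 over 6.2 to 7.04 with D5W and from 6.81 over 7.98 to 8.88 with oxaliplatin, so that a single oxaliplatin array lay among the D5W arrays. Its log2 difference was 1.46 ± 0.43 (adjusted p = 0.0362). That call was lost without any 1 of 10 of the 16 arrays: all D5W arrays but water replicate 1 and F68 replicates 2 and 3, and all oxaliplatin arrays but water replicate 2 and F68 replicates 3 and 4, with differences from 1.25 to 1.46. Foxa2 split the D5W arrays into a high and a low set, at 10.38 to 10.89 on 4 arrays and 8.88 to 9.09 on the other 4. The 8 oxaliplatin arrays ran from 8.51 over 9.04 to 9.26, beside the low set alone. Its log2 difference was -0.84 ± 0.25 (adjusted p = 0.0388). Foxa2 was no longer called without D5W then F68 replicate 4, D5W then water replicates 2, 3 or 4, or oxaliplatin then F68 replicates 1 or 2 or water replicates 2 or 4, between -0.66 and -0.85. With all arrays as labelled, neither Noct (adjusted p = 0.0594) nor Foxa2 (adjusted p = 0.166) was called. The 5 others were not called: Irs2 differed by 0.33 ± 0.16 (adjusted p = 0.32), Sds by 0.37 ± 0.45 (adjusted p = 0.79), Pck1 by 0.17 ± 0.09 (adjusted p = 0.378), Ppargc1a by 0.10 ± 0.14 (adjusted p = 0.822) and Igf1 by 0.02 ± 0.04 (adjusted p = 0.872).

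At 6 h the serine-catabolising enzyme Sds was the member that differed. It was 1 of 8 members called beside 10.4% of all genes, a share close to that background. Sds ran from 8.89 over 9.78 to 10.47 with D5W and from 10.25 over 11.56 to 12.76 with oxaliplatin. The lowest oxaliplatin array lay among the D5W arrays and the other 7 lay above all of them. Sds was 3.48-fold higher (1.80 ± 0.45, adjusted p = 0.00402), and leaving out any 1 array did not end the call. Noct was high in both groups but on few D5W arrays, from 5.99 over 7.34 to 9.82 with D5W and from 7.38 over 8.56 to 10.65 with oxaliplatin. Its difference of 1.15 ± 0.43 was not called (adjusted p = 0.0709). It passed the threshold without D5W then water replicate 3, whose Noct stood at 9.40 (1.56, adjusted p = 0.00797), without D5W then F68 replicate 3 at 9.82 (1.45, adjusted p = 0.0187), and without oxaliplatin then water replicate 1 (1.33, adjusted p = 0.0486) or 4 (1.36, adjusted p = 0.0317). Igfbp1 differed by -0.51 ± 0.42 (adjusted p = 0.502), Foxa2 by -0.44 ± 0.25 (adjusted p = 0.282), Ppargc1a by 0.20 ± 0.14 (adjusted p = 0.396), Igf1 by -0.07 ± 0.04 (adjusted p = 0.248), Irs2 by -0.06 ± 0.16 (adjusted p = 0.878) and Pck1 by -0.03 ± 0.09 (adjusted p = 0.889).

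At 24 h Igfbp1, Irs2, Ppargc1a and Pck1 were higher after oxaliplatin. These were 4 of 8 members, beside 6.4% of all genes in either direction. Igfbp1 ran from 7.5 over 8.98 to 10.16 with D5W and from 9.1 over 10.36 to 11.01 with oxaliplatin. The groups overlapped between 9.1 and 10.16. Its difference was 1.36 ± 0.42 (adjusted p = 0.0348). The Igfbp1 call was lost without any 1 of 9 of the 16 arrays, which were the D5W arrays of water replicates 1, 2 and 3 and F68 replicates 3 and 4 and the oxaliplatin arrays of replicates 3 and 4 of both vehicles (1.14 to 1.40). Irs2 ran from 6.89 over 7.38 to 8.14 with D5W and from 7.65 over 8.02 to 8.14 with oxaliplatin, with 2 D5W arrays in the oxaliplatin range. Its difference was 0.54 ± 0.16 (adjusted p = 0.0293), lost without D5W then water replicates 1 or 3, D5W then F68 replicates 3 or 4, oxaliplatin then F68 replicates 3 or 4 or oxaliplatin then water replicate 4 (0.48 to 0.52). Pck1 was higher by a small amount. Its 8 D5W arrays ran from 12.71 over 13.69 to 13.87 and its oxaliplatin arrays from 13.67 over 13.86 to 13.99, with the lowest D5W array well below the rest. The difference was 0.31 ± 0.09 (adjusted p = 0.0185). Without that array, D5W then F68 replicate 4, it was 0.20 (adjusted p = 0.108), and the call was also lost without D5W then F68 replicate 3 (0.29) or D5W then water replicate 2 (0.28). Ppargc1a ran from 6.64 over 6.95 to 7.51 with D5W and from 6.88 over 7.42 to 8.07 with oxaliplatin, and the groups overlapped widely. Its difference was 0.45 ± 0.14 (adjusted p = 0.0346) with the brightest of 3 probe sets. A dimmer probe set, above the filter on 54 of 95 arrays, gave 0.20 (adjusted p = 0.562). The remaining one was above it on 0 of 95, and its values are not given, though it enters the counts of alternatives below. The Ppargc1a call was lost without any 1 of 8 arrays: D5W then water replicates 1 or 4, D5W then F68 replicates 2 or 3, oxaliplatin then water replicates 2 or 3 and oxaliplatin then F68 replicates 3 or 4 (0.34 to 0.45), and with array weights (0.41, adjusted p = 0.0595). Fitted on the groups of 24 h alone, none of the 4 members was called (adjusted p from 0.0592 for Irs2 to 0.171 for Igfbp1), and with all arrays as labelled Igfbp1 (adjusted p = 0.0652) and Ppargc1a (adjusted p = 0.132) were not. Igf1 differed by -0.07 ± 0.04 (adjusted p = 0.235), Foxa2 by 0.05 ± 0.25 (adjusted p = 0.934), Noct by -0.34 ± 0.43 (adjusted p = 0.69) and Sds by -0.30 ± 0.45 (adjusted p = 0.744).

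**Figure D2:**
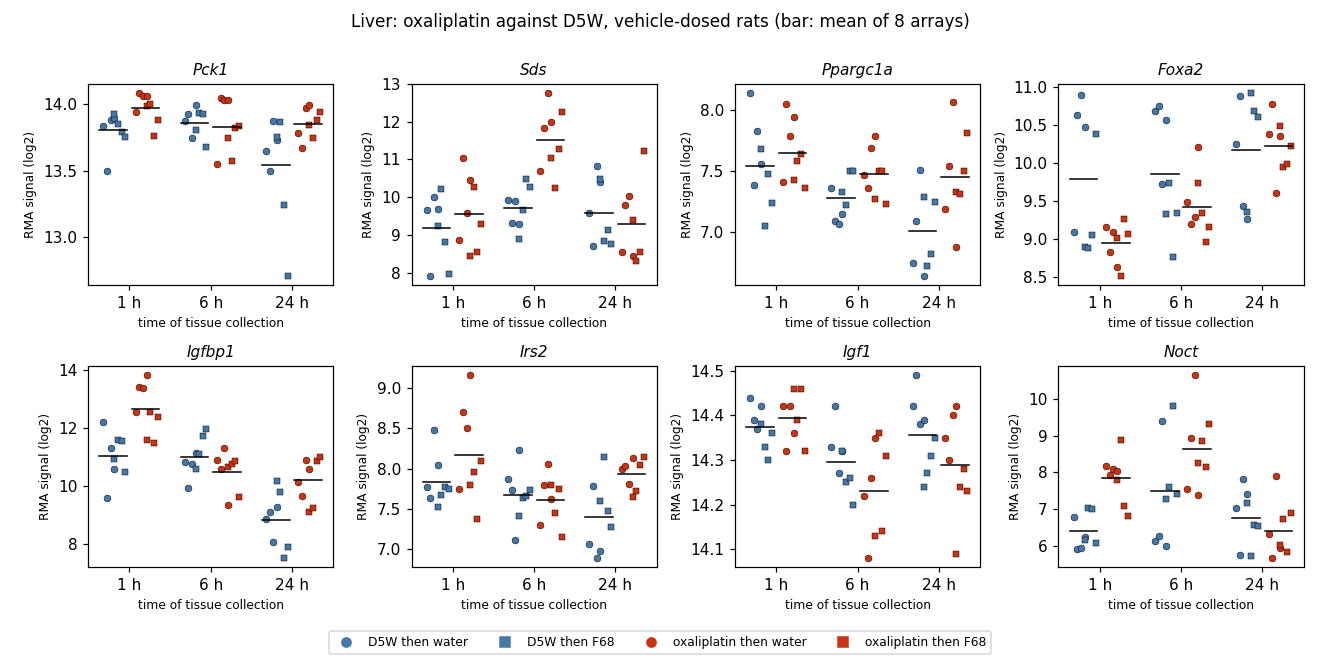
Log2 level of the 8 members in the liver at 1, 6 and 24 h after D5W or oxaliplatin in vehicle-dosed rats; each point is 1 array and each bar the mean of 8 arrays. Igfbp1 stands higher after oxaliplatin at 1 and 24 h but not at 6 h, Sds at 6 h, and Igf1 stays between 14.08 and 14.49 on all 48 arrays.

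The oxaliplatin difference itself changed between times for Igfbp1 and Sds. For Igfbp1 it was lower at 6 h than at 1 h by -2.13 ± 0.59 (adjusted p = 0.0448) and higher at 24 h than at 6 h by 1.86 ± 0.59 (adjusted p = 0.0323). For Sds it was lower at 24 h than at 6 h by -2.10 ± 0.63 (adjusted p = 0.0246). Beside these single members, 1.29% of all genes were called between 1 and 6 h and 9.13% between 6 and 24 h. The first of the Igfbp1 calls was lost without any 1 of 20 of the 32 arrays compared (-1.91 to -2.19) and the second without any 1 of 10 (1.64 to 1.79). With all arrays as labelled neither was called (adjusted p = 0.0873 and 0.0544), and the first was also lost with no filter, quantile normalization, centring or robust eBayes (adjusted p from 0.0507 to 0.053). The arrays of 24 h carry other letters in their sample codes than those of 1 and 6 h, and the labels do not explain the codes.

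Taken by oral vehicle, the liver values of Igfbp1 and Foxa2 at 1 h differed more with water than with F68, but the contrast between vehicles was not called. With water, Igfbp1 stood at 12.2, 9.57, 11.3 and 10.59 after D5W and at 12.56, 13.4, 13.38 and 13.82 after oxaliplatin. With F68 it stood at 10.91, 11.59, 11.56 and 10.46 after D5W and at 11.58, 12.56, 11.47 and 12.39 after oxaliplatin. The groups did not overlap with water and overlapped with F68. The difference was 2.38 ± 0.59 with water (adjusted p = 0.0149) and 0.87 ± 0.59 with F68 (adjusted p = 0.94), and the contrast of the vehicles was -1.51 ± 0.83 (adjusted p = 1). Foxa2 differed by -1.35 ± 0.35 with water (adjusted p = 0.0258) and differed by -0.33 ± 0.35 with F68 (adjusted p = 0.999), with a contrast of 1.01 ± 0.50 (adjusted p = 1). Of all genes, 1.86% were called with water and 0.628% with F68, and 0% for the contrast. With water alone the Igfbp1 call was lost without D5W then water replicate 2 (1.93) or 4 (2.27) or oxaliplatin then water replicate 4 (2.20), and the Foxa2 call without D5W then water replicates 2, 3 or 4 or oxaliplatin then water replicates 2 or 4 (-1.14 to -1.31). At 6 h Sds was called with water (2.21 ± 0.63, adjusted p = 0.0277) and not with F68 (1.39 ± 0.63, adjusted p = 0.308), beside 4.42% and 1.51% of all genes. At 24 h Irs2 was called with water (0.81 ± 0.23, adjusted p = 0.0499) and Pck1 with F68 (0.46 ± 0.12, adjusted p = 0.0242), beside 1.21% and 3.12% of all genes. The Sds call was lost without D5W then water replicates 2 or 4 or oxaliplatin then water replicates 2 or 3 (1.90 to 2.20). The Irs2 call was lost without any 1 array but D5W then water replicate 2 (0.71 to 0.87) and under 5 of the other settings (adjusted p from 0.0518 to 0.105), and the Pck1 call without replicates 3 or 4 of either infusion then F68 (0.23 to 0.45) and with the groups of 24 h alone (adjusted p = 0.178). With all arrays as labelled the Foxa2 call at 1 h was lost (adjusted p = 0.13).

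The rats given a kinase inhibitor hold a further look at oxaliplatin that the vehicle comparison did not use; it is described here without a test. With sunitinib at 1 h, liver Igfbp1 stood at 11.13, 12.11, 11.45 and 12.31 after D5W and at 13.33, 13.05, 12.69 and 12.95 after oxaliplatin. These groups did not overlap. With sorafenib it stood at 9.92, 10.48, 11.86 and 10.75 after D5W and at 11.98, 10.82, 11.73 and 12.11 after oxaliplatin, and the groups overlapped. Noct with sunitinib stood at 5.77, 7.31, 6.13 and 6.21 after D5W and at 7.53, 8.23, 7.68 and 8.01 after oxaliplatin, without overlap. With sorafenib Noct stood at 6.79, 6.94, 6.21 and 6.48 after D5W and at 6.46, 6.73, 6.52 and 7.09 after oxaliplatin, fully interleaved. Foxa2 with sunitinib stood at 10.34, 9.05, 10.2 and 9.31 after D5W and at 8.97, 9.04, 10.15 and 9.12 after oxaliplatin. Both groups again held high and low arrays. At 6 h Sds with sunitinib stood at 10.63, 10.42, 11.88 and 10.47 after D5W and at 12.43, 12.06, 10.2 and 10.59 after oxaliplatin. With sorafenib Sds stood at 9.8, 10.81, 10.48 and 10.85 after D5W and at 12.62, 10.32, 9.46 and 11.4 after oxaliplatin. Sds overlapped between infusions under both inhibitors. At 24 h Igfbp1 with sunitinib stood at 7.89, 11.94, 8.95 and 9.03 after D5W and at 11, 11.25, 11.87 and 10.64 after oxaliplatin, where a single D5W array was as high as the oxaliplatin arrays. With sorafenib Igfbp1 stood at 10.53, 10.9 and 9.69 after D5W and at 10.86, 7.98, 8.36 and 10.8 after oxaliplatin. These groups overlapped, with the lowest values after oxaliplatin, and the D5W arrays among them stood apart as whole arrays, as given below. Foxa2 with sorafenib at 1 h and Irs2, Ppargc1a and Pck1 at 24 h are not given in this look.

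Lists of related liver genes, chosen with the members left out and with earlier results of these data known, give the surroundings of these changes. At 1 h after oxaliplatin, 5 of 15 glucocorticoid-induced genes were higher and 0 lower, with a median log2 difference of 0.55 against -0.01 over all genes, of which 3.46% were called. Among them were Tat, a tyrosine-degrading enzyme (1.07 ± 0.22), the factor Cebpd (0.99 ± 0.20) and the mRNA-decay factor Zfp36 (0.77 ± 0.14). Of 22 factors that control fasting genes 4 were higher, with Cebpb at 0.74 ± 0.12 and Klf9 at 0.55 ± 0.15. The fasting-induced list had 2 of 13 higher, Lpin1, a phosphatidate phosphatase (0.85 ± 0.25), and Txnip, which restrains glucose uptake (0.38 ± 0.06). The amino acid list had 2 of 19 higher, Tat and the amino acid transporter Slc38a2 (0.88 ± 0.17). None of 23 other genes of gluconeogenesis and carbon entry and none of 13 insulin-raised genes was called at 1 h, and 1 of 16 genes of the growth hormone axis was lower, Igf2r (-0.19 ± 0.05).

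At 6 h, when Sds was higher, 4 of 19 other genes of amino acid catabolism and the urea cycle were higher and 0 lower, beside 10.4% of all genes called, among them the urea cycle enzyme Asl (0.54 ± 0.10), the lysine-degrading Aass (0.52 ± 0.13) and the tryptophan-degrading Tdo2 (0.21 ± 0.06). In gluconeogenesis the aspartate aminotransferase Got1 was higher (0.87 ± 0.20) and pyruvate carboxylase Pc lower (-0.25 ± 0.07), 2 of 23 tested and so near the share of all genes. Foxa3, a relative of Foxa2, was higher (0.48 ± 0.14), and so was the glucocorticoid target Fkbp5 (0.53 ± 0.14). The fasting gene Pdk4, which blocks pyruvate oxidation, was lower (-1.05 ± 0.32), and the prolactin receptor Prlr was lower (-1.35 ± 0.44). By 24 h, 9 of 13 insulin-raised genes were lower and 0 higher, with a list median of -0.63 against -0.02 over all genes, of which 6.4% were called. The lipid droplet gene Pnpla3 was lower by -2.74 ± 0.54, the desaturase Scd by -1.54 ± 0.19 and the glycolytic Pklr by -1.10 ± 0.16. Pnpla3 had already been lower at 6 h (-2.24 ± 0.54), one of 2 insulin-raised genes called there, the other being Rgs16 (-1.52 ± 0.53). While Pck1 was higher, 4 of 23 other genes of gluconeogenesis were lower and 0 higher, among them Gpi (-0.62 ± 0.10), Gpd1 (-0.35 ± 0.10) and Eno1 (-0.20 ± 0.05), enzymes shared with glycolysis or glycerol use. The fasting hormone Fgf21 was also lower (-0.86 ± 0.26), while Klf15, a factor of amino acid use, was higher (0.55 ± 0.16). Foxa3, Fkbp5, Pdk4, Prlr, Fgf21 and Klf15 are single genes, named without a count of their lists, and are not read as a result about those lists. All values are log2 differences called by limma after Benjamini-Hochberg adjustment, and they describe the lists without a test of any list as a whole.

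Markers of other cell types moved in these livers, and their part in the results was not tested. None of 9 liver markers was called at 1, 6 or 24 h. Endothelial markers were lower at 1 h for 4 of 7 (list median -0.58), and macrophage markers were lower for 2 of 8 at 1 h (-0.29), 5 of 8 at 6 h (-0.40) and 5 of 8 at 24 h (-0.42). All 3 erythroid markers were lower at 24 h (-1.02). Over all liver arrays the macrophage list ranged from 9.6 to 11.77 and the endothelial list from 7.86 to 9.12.

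In vehicle-dosed D5W livers, with no drug given, Igfbp1 fell between 6 and 24 h by 2.17 ± 0.42 on the log2 scale. Its 8 arrays ran from 9.57 over 11.11 to 12.2 at 1 h, from 9.92 over 10.96 to 11.96 at 6 h and from 7.5 over 8.98 to 10.16 at 24 h. The 24 h range lay mostly below both earlier ranges. The log2 differences were -2.17 for 24 against 6 h (adjusted p = 0.000301) and -2.20 ± 0.42 for 24 against 1 h (adjusted p = 0.00116). In every tissue the arrays of 24 h carry other letters in their sample codes than those of 1 and 6 h. In comparisons of 24 h with an earlier time, time and that difference cannot be told apart. Pck1 differed by -0.32 ± 0.09 between 6 and 24 h (adjusted p = 0.0125), a call lost without D5W then F68 replicate 4 of 24 h (-0.20, adjusted p = 0.107). Ppargc1a was lower at 24 h than at 1 h by -0.54 ± 0.14 (adjusted p = 0.0206). Its dimmer probe set gave -0.39 (adjusted p = 0.311), all arrays as labelled gave adjusted p = 0.111, and the call was lost without 5 arrays, D5W then water replicate 1 and D5W then F68 replicate 1 of 1 h and D5W then water replicates 1 and 4 and D5W then F68 replicate 3 of 24 h (-0.47 to -0.51). So 2 of 8 members were called between 6 and 24 h beside 7.34% of all genes, 2 of 8 between 1 and 24 h beside 2.03%, and 0 of 8 between 1 and 6 h beside 11.3%. Set against this course, the oxaliplatin livers at 24 h (Igfbp1 median 10.36) stood between the 6 h and the 24 h level of the D5W livers. Between 6 and 24 h, 4 of 13 insulin-raised genes were also lower, with Rgs16 at -2.75 ± 0.53, the fatty acid elongase Elovl6 at -1.04 ± 0.26 and the sterol enzyme Sqle at -0.81 ± 0.21. The water and F68 vehicles gave no member call against each other in the liver, beside 0.198% of genes at 1 h, 0.396% at 6 h and 0% at 24 h.

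Sunitinib given without oxaliplatin gave no member call in the liver, beside 0% of all genes at 1 and 6 h and 0.964% at 24 h. The nearest was Ppargc1a at 24 h. It stood at 6.75, 7.09, 7.51 and 6.64 with water and at 7.61, 7.79, 7.79 and 7.62 with sunitinib. The groups did not overlap, and the difference of 0.71 ± 0.19 missed the threshold in limma over all genes (adjusted p = 0.0503). It passed without D5W then sunitinib replicate 4 (0.73, adjusted p = 0.0419) or D5W then water replicate 3 (0.88, adjusted p = 0.0234), while the dimmer probe set gave 0.37 (adjusted p = 0.525). Igf1 at 24 h after oxaliplatin stood at 14.35, 14.3, 14.4 and 14.42 with water and at 14.22, 14.27, 14.18 and 14.07 with sunitinib, again without overlap, and differed by -0.18 ± 0.05 (adjusted p = 0.378), where 0% of all genes were called.

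Sorafenib without oxaliplatin gave member calls in the liver at 24 h, where 67.3% of all genes were called, and none at 1 h (0.0689%) or 6 h (0.0344%). The 3 sorafenib arrays of that time stood apart as whole arrays: their medians were 6.74 to 6.78 against a liver median of 6.69, kidney markers stood at 6.26 to 6.46 against 5.87, the kidney gene Umod at 6.31 to 6.65 against 5.68, and the labelling control Cre at 14.17 to 14.4 against 13.91. Whether this bears on the members was not tested. The median difference of all genes was -0.24, and it was -0.05 after quantile normalization and -0.30 after centring arrays. Of the 8 members 5 were called, a share below that of all genes. Ppargc1a stood at 7.29, 6.72, 6.82 and 7.25 with F68 and at 7.95, 8.1 and 7.95 with sorafenib, without overlap, a log2 difference of 0.98 ± 0.21 (adjusted p = 3.76e-05). The dimmer probe set of Ppargc1a gave 0.30 (adjusted p = 0.363). Igfbp1 stood at 10.16, 9.77, 7.5 and 7.9 with F68 and at 10.53, 10.9 and 9.69 with sorafenib, where the lowest sorafenib array lay below 2 F68 arrays, and differed by 1.54 ± 0.64 (adjusted p = 0.0283). Foxa2 stood at 9.35, 10.92, 10.68 and 10.6 with F68 and at 9.71, 8.73 and 8.92 with sorafenib, and differed by -1.27 ± 0.38 (adjusted p = 0.00275). Pck1 stood at 13.75, 13.86, 13.24 and 12.71 with F68 and at 13.82, 13.85 and 13.72 with sorafenib. Its difference of 0.41 ± 0.13 (adjusted p = 0.00484) was 0.18 without D5W then F68 replicate 4 (adjusted p = 0.175). Igf1 stood at 14.24, 14.27, 14.31 and 14.35 with F68 and at 14.16, 14.15 and 14.18 with sorafenib, a difference of -0.13 ± 0.05 (adjusted p = 0.0293), and its other probe sets gave -0.15 (adjusted p = 0.227) and 0.09 (adjusted p = 0.288). Its level was near the top of the array's range, which ended at 15.26. The Igfbp1 call was lost without D5W then F68 replicates 3 (1.10) or 4 (1.23) or D5W then sorafenib replicates 2 (1.46) or 3 (1.28), and the Igf1 call without the same 4 arrays (-0.11 to -0.13). After centring or quantile normalization the directions of all 5 were the same, and Igf1 was not called after quantile normalization (-0.09, adjusted p = 0.139). With array weights Igfbp1 (adjusted p = 0.115), Foxa2 (adjusted p = 0.0621) and Igf1 (adjusted p = 0.112) were not called, with the groups of 24 h alone Igfbp1 (adjusted p = 0.0863) and Igf1 (adjusted p = 0.0847) were not, and with all arrays as labelled Igfbp1 was not (0.93, adjusted p = 0.172).

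After oxaliplatin, sorafenib gave no member call in the liver at 24 h, beside 1.38% of all genes. Igfbp1 stood at 9.1, 9.23, 10.87 and 11.01 with F68 and at 10.86, 7.98, 8.36 and 10.8 with sorafenib, widely spread in both. The sorafenib difference after oxaliplatin minus that without it was -2.09 ± 0.87 for Igfbp1 (adjusted p = 0.0487), -0.49 ± 0.18 for Pck1 (adjusted p = 0.0247) and -0.94 ± 0.29 for Ppargc1a (adjusted p = 0.00762). These were 3 of 8 members, beside 38.2% of all genes. All 3 rest on the same 3 arrays that stood apart. With its dimmer probe set Ppargc1a gave -0.38 (adjusted p = 0.461). Igfbp1 was not called under 7 other settings (adjusted p from 0.0501 to 0.24), nor Pck1 with array weights (adjusted p = 0.0906) or the groups of 24 h alone (adjusted p = 0.118). The Igfbp1 call was lost without any 1 of D5W then F68 replicates 3 or 4, D5W then sorafenib replicates 2 or 3, oxaliplatin then F68 replicates 3 or 4 or oxaliplatin then sorafenib replicates 2 or 3 (-1.59 to -2.01). The Pck1 call was lost without D5W then F68 replicate 4 (-0.27, adjusted p = 0.18) and also without D5W then F68 replicate 3 (-0.44), D5W then sorafenib replicate 3 (-0.47) or oxaliplatin then sorafenib replicate 3 (-0.44).

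**Figure D3:**
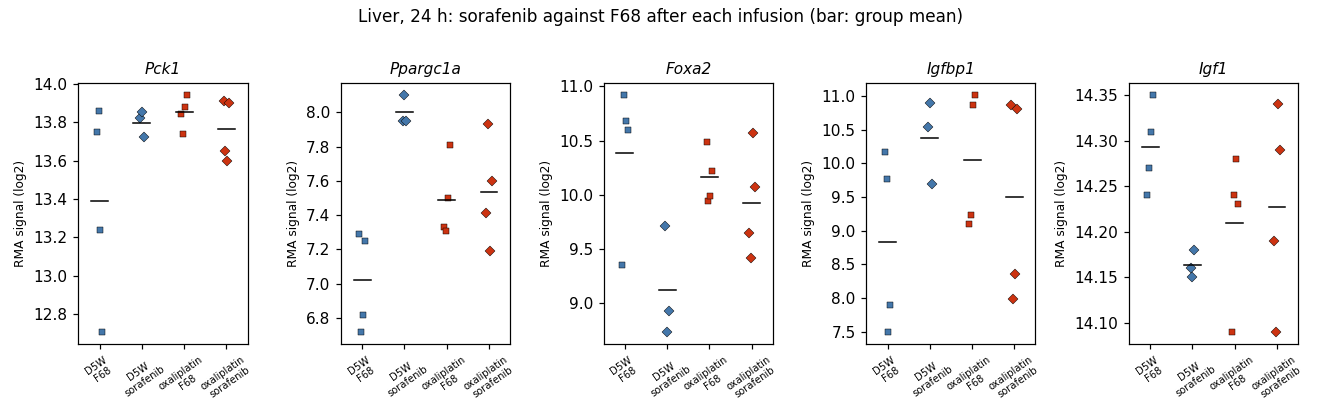
Log2 level of members in the liver at 24 h with F68 or sorafenib, after D5W or oxaliplatin; each point is 1 array, with 3 arrays for D5W then sorafenib and 4 in the other groups. Ppargc1a after D5W stands at 7.95 to 8.1 with sorafenib against 6.72 to 7.29 with F68, and the groups after oxaliplatin overlap.

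In the kidney, the second gluconeogenic organ, oxaliplatin gave higher Noct, Igfbp1 and Sds at 1 h. These were 3 of the 7 members tested, beside 9.41% of all 12309 genes. Noct ran from 8.29 over 8.89 to 9.23 with D5W and from 9.38 over 9.91 to 10.4 with oxaliplatin. No values overlapped. Noct was higher by 1.10 ± 0.16 on the log2 scale (adjusted p = 1.41e-07), with water (1.20 ± 0.22, adjusted p = 0.000112) and with F68 (0.99 ± 0.22, adjusted p = 0.00301) taken alone, beside 3.64% and 2.37% of all genes, and it was called without any 1 array. In rats given sunitinib, described without a test, kidney Noct stood at 9.15, 9.58, 8.86 and 9.11 after D5W and at 10.02, 9.67, 9.81 and 9.42 after oxaliplatin. With sorafenib it stood at 9.16, 8.95, 9.48 and 9.88 after D5W and at 9.55, 9.55, 9.88 and 9.27 after oxaliplatin. The overlap was slight with sunitinib and wide with sorafenib. The array at 10.02, oxaliplatin then sunitinib replicate 1, is in doubt as a whole, with a median of 7.81 against a kidney median of 7.35 and the control BioB at 4.69 against 8.56, and without it the 3 others ran from 9.42 to 9.81. Igfbp1 ran from 9.4 over 9.98 to 10.2 with D5W and from 10.08 over 10.36 to 11.68 with oxaliplatin, with slight overlap. Its difference was 0.60 ± 0.15 (adjusted p = 0.00405), called without any 1 array. With F68 alone it was 0.40 ± 0.21 and not called (adjusted p = 0.463). With water alone it was 0.79 ± 0.21 (adjusted p = 0.0181), a call that leaving out replicate 1 of D5W then water (0.63) or replicate 3 of oxaliplatin then water (0.46) ended, as did fitting the groups of 1 h alone (adjusted p = 0.0902). Sds ran from 7.26 over 7.64 to 7.8 with D5W and from 7.51 over 7.97 to 8.49 with oxaliplatin, a difference of 0.40 ± 0.13 (adjusted p = 0.0282). That call was lost without oxaliplatin then F68 replicate 1 (0.32), oxaliplatin then water replicates 1, 2 or 3, D5W then water replicate 1, or D5W then F68 replicates 1 or 4 (0.36 to 0.39), with the groups of 1 h alone (adjusted p = 0.0893), and with water (0.32, adjusted p = 0.456) or F68 (0.48, adjusted p = 0.163) taken alone. Pck1 lay between 13.98 and 14.3 on the 16 arrays of that time, near the top of the array range (15.26), where a further rise may be hard to see. Ppargc1a was not called with its brightest probe set. Its next brightest, above the filter on all 95 kidney arrays, was called lower in limma, by -0.22 ± 0.06 (adjusted p = 0.00659). The change of that probe set's oxaliplatin difference from 1 to 24 h was also called (0.25, adjusted p = 0.0444), and that of the brightest was not (0.20, adjusted p = 0.067).

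At 6 h kidney Noct was lower after oxaliplatin, by -0.50 ± 0.16 (adjusted p = 0.0129), the only 1 of 7 members called beside 20.6% of all genes. It ran from 8.55 over 9.16 to 9.67 with D5W and from 8.43 over 8.61 to 8.94 with oxaliplatin. D5W then F68 replicate 3 (8.55) and D5W then water replicate 1 (8.91) lay in the oxaliplatin range, and the other D5W arrays lay above it. With water or F68 taken alone it was not called (-0.50, adjusted p = 0.148, and -0.51, adjusted p = 0.143). At 24 h no member was called, beside 7.77% of all genes, and Noct ran from 8.67 over 8.88 to 9.8 with D5W and from 8.78 over 9.07 to 9.9 with oxaliplatin. The Noct difference at 6 h was lower than that at 1 h by -1.60 ± 0.22 (adjusted p = 9.52e-08), and the Igfbp1 difference was lower by -0.83 ± 0.21 (adjusted p = 0.00662). Of all genes 7.99% were called in that contrast. At 24 h against 1 h, with 9.36% called, the difference was lower by -0.97 ± 0.22 for Noct (adjusted p = 0.00175) and -0.66 ± 0.21 for Igfbp1 (adjusted p = 0.0375). At 24 h against 6 h, with 11.3% called, it was higher for Noct by 0.63 ± 0.22 (adjusted p = 0.0495), and 24 of the 32 arrays could each end that call by being left out (0.52 to 0.65). The Igfbp1 contrast of 24 and 1 h was lost without any 1 of 12 arrays (-0.49 to -0.65), with all arrays as labelled (adjusted p = 0.0576) and without arrays carrying another tissue's markers (-0.59, adjusted p = 0.0634). The Noct contrast of 24 and 6 h was lost under 5 other settings (adjusted p from 0.051 to 0.145). With F68 against water at 6 h, Igfbp1 stood at 9.73, 10.2, 10.5 and 10.01 against 9.39, 9.4, 9.13 and 9.41, without overlap. It was higher with F68 by 0.78 ± 0.21 (adjusted p = 0.0253), the 1 member called beside 3.93% of all genes, and the call was lost without F68 replicate 3 (0.65) or 4 (0.81) or water replicate 3 (0.71) and with all arrays as labelled (adjusted p = 0.0554). In vehicle-dosed kidneys Pck1 was lower at 24 h than at 6 h by -0.23 ± 0.04 (adjusted p = 0.00059), 1 of 7 beside 7.33% of all genes. No overlap of its levels was seen, from 14.15 over 14.19 to 14.35 at 6 h and from 13.74 over 14.02 to 14.09 at 24 h.

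**Figure D4:**
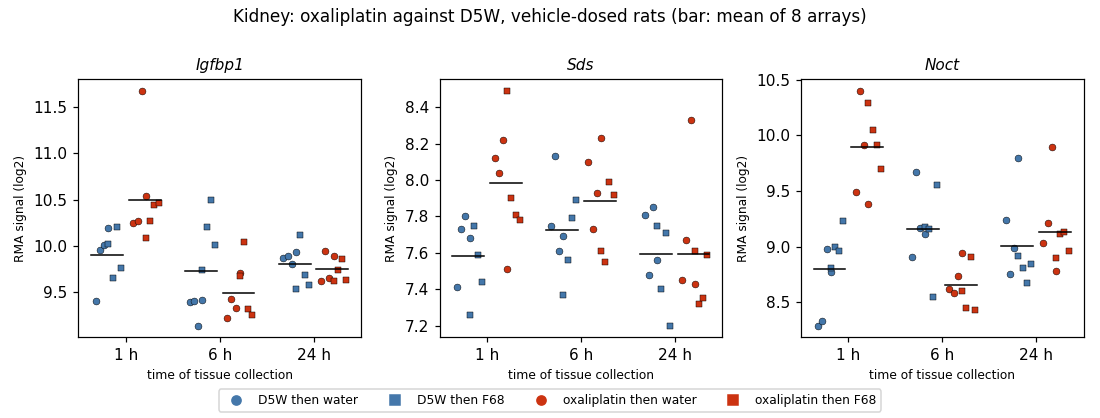
Log2 level of Igfbp1, Sds and Noct in the kidney at 1, 6 and 24 h after D5W or oxaliplatin in vehicle-dosed rats; each point is 1 array and each bar the mean of 8 arrays. Noct at 1 h stands at 9.38 to 10.4 after oxaliplatin and 8.29 to 9.23 after D5W, and the order turns at 6 h.

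Other genes of the kidney at 1 h after oxaliplatin included 10 of 14 glucocorticoid-induced genes that were higher and 0 lower (list median 0.65, all genes -0.02 and 9.41% called), among them the stress gene Gadd45b (1.15 ± 0.16) and Zfp36 (1.01 ± 0.14). Of 19 factors of fasting control 5 were higher and 2 lower, with Cebpb at 1.03 ± 0.13 and Nr4a1 at 0.94 ± 0.12. None of 23 genes of gluconeogenesis was called at 1 h. At 24 h 6 of them were higher and 0 lower, beside 7.77% of all genes called, among them the phosphatases Fbp2 (0.39 ± 0.08) and G6pc3 (0.30 ± 0.05). Macrophage, endothelial, erythroid and liver markers were not called in the kidney at 1 h, and 2 of 10 kidney markers were lower. The median of fat cell markers varied widely over the kidney arrays. It was lowest on D5W then F68 replicate 1 of 1 h (5.47) and highest on oxaliplatin then F68 replicate 3 of 1 h (10.25). Both arrays are in this comparison, and their part in the results was not tested. In the kidney neither sunitinib alone (0.0244%, 0% and 0% of all genes at 1, 6 and 24 h) nor sorafenib alone (0%, 0.0731% and 0.203%) gave a member call. At 24 h Igfbp1 stood at 9.53, 10.11, 9.68 and 9.57 with F68 and at 9.05, 9.16 and 9.12 with sorafenib, without overlap, at a difference of -0.61 ± 0.23 that was not called (adjusted p = 0.385). Of these arrays, sorafenib replicate 2 (9.16) carried liver markers at 10.03 and F68 replicate 2 (10.11) at 8.01, and their part in these values was not tested.

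In the heart, where Igfbp1, Pck1 and Foxa2 did not pass the filter, Ppargc1a was the member with the most calls. Oxaliplatin over both vehicles called 1 of 5 members at 24 h, Igf1 (-0.29 ± 0.10, adjusted p = 0.023), beside 19.2% of all 11316 genes, and none at 1 h (1.23%) or 6 h (0.866%). Its levels at 24 h with water were 11.49, 11.5, 11.16 and 11.42 after D5W and 11.13, 11.04, 11.01 and 11.14 after oxaliplatin, without overlap. With F68 they were 10.92, 11.19, 11.26 and 11.26 after D5W and 10.89, 11.15, 11.07 and 10.43 after oxaliplatin, with overlap. The Igf1 call was lost without oxaliplatin then F68 replicate 4 (-0.22, adjusted p = 0.11), with water (adjusted p = 0.0943) or F68 (adjusted p = 0.434) taken alone, and with the beta-actin end difference (3′ minus 5′ probe sets, a measure of RNA integrity) as a covariate (-0.24, adjusted p = 0.134). On the same arrays its other probe sets were called too in limma, at -0.28 (adjusted p = 0.0482) and -0.30 (adjusted p = 0.0189). The arrays of D5W then water at 24 h stood apart in that end difference and in a Ppargc1a probe set, as given with the 6 h hearts below. Their part in the Igf1 result was not tested beyond the covariate.

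At 1 h heart Ppargc1a stood at 9.42, 9.36, 8.97 and 9.38 with D5W then water. It stood at 10.06, 9.88, 9.71 and 9.9 with D5W then sunitinib, at 9.66, 9.99, 9.61 and 10.13 with D5W then F68, and at 9.73, 9.66, 9.85 and 9.55 with oxaliplatin then water. All 12 of these arrays lay above the 4 of D5W then water, so 3 comparisons share the low group, and contrasts built on it share it too. The macrophage markers of that low group stood at 8.71, 9.16, 9.35 and 8.99, the third being the lowest Ppargc1a array and the highest macrophage value of all 96 hearts. They ran from 8.39 to 8.8 with sunitinib, 8.33 to 8.95 with F68 and 8.09 to 8.77 with oxaliplatin then water, and their part in the result was not tested. Against it Ppargc1a was higher with sunitinib by 0.61 ± 0.12 (adjusted p = 0.00067, 10% of all genes called), with F68 by 0.57 ± 0.12 (adjusted p = 0.00104, 11.6% called) and with oxaliplatin by 0.42 ± 0.12 (adjusted p = 0.0492, 1.28% called). The next brightest probe set, above the filter on all 96 arrays, gave 0.54 (adjusted p = 0.00136), 0.59 (adjusted p = 0.000488) and 0.47 (adjusted p = 0.0177) for the same comparisons, and the dimmest was below the filter on all arrays of 1 h. The oxaliplatin call was lost without D5W then water replicate 3, the lowest array (0.31, adjusted p = 0.436), D5W then water replicates 2 or 4, or oxaliplatin then water replicates 1, 2 or 3 (0.37 to 0.45), and with no filter (adjusted p = 0.0576), centring (adjusted p = 0.0563), the groups of 1 h alone (adjusted p = 0.0721) or the beta-actin covariate (0.38, adjusted p = 0.0703). Igf1 with sunitinib stood at 11.12, 10.81, 11.08 and 10.65 against 11.32, 11.64, 11.16 and 11.49 with water, all lower, by -0.49 ± 0.14 (adjusted p = 0.0146), a call lost without D5W then sunitinib replicate 4 (-0.40) or D5W then water replicate 2 (-0.41) and with the beta-actin covariate (-0.43, adjusted p = 0.108). Its 2 other probe sets, both above the filter on all 96 arrays, gave -0.17 (adjusted p = 0.507) and -0.15 (adjusted p = 0.515). After oxaliplatin the sunitinib difference was lower by -0.72 ± 0.17 for Ppargc1a (adjusted p = 0.00642) and higher by 0.65 ± 0.19 for Igf1 (adjusted p = 0.0287), 2 of 5 members beside 6.56% of all genes. This contrast holds the same low D5W then water group. Among oxaliplatin rats Ppargc1a differed with sunitinib by only -0.11 ± 0.12 in limma (adjusted p = 0.857). For sorafenib the same contrast was called for Igf1 (0.69 ± 0.19, adjusted p = 0.0234), beside 5.58%. The Igf1 calls of these contrasts were each lost without any 1 of 5 arrays (0.57 to 0.64 for sunitinib, 0.59 to 0.70 for sorafenib) and with the beta-actin covariate (adjusted p = 0.0836 and 0.0763). With the 2 other probe sets they were 0.40 (adjusted p = 0.237) and 0.30 (adjusted p = 0.352) for sunitinib and 0.21 (adjusted p = 0.611) and 0.26 (adjusted p = 0.446) for sorafenib. The sorafenib contrast was also lost with quantile normalization (adjusted p = 0.0634) and without arrays carrying another tissue's markers (adjusted p = 0.0629). Noct with sorafenib after oxaliplatin stood at 8.39, 8.52, 8.18 and 8.06 against 9.05, 8.86, 9.02 and 8.71 with F68, without overlap, a difference of -0.62 ± 0.17 (adjusted p = 0.0309, 2.15% of all genes called). It was lost without oxaliplatin then F68 replicates 1, 2 or 3 or oxaliplatin then sorafenib replicates 3 or 4 (-0.54 to -0.64), and without arrays carrying another tissue's markers (-0.58, adjusted p = 0.141).

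**Figure D5:**
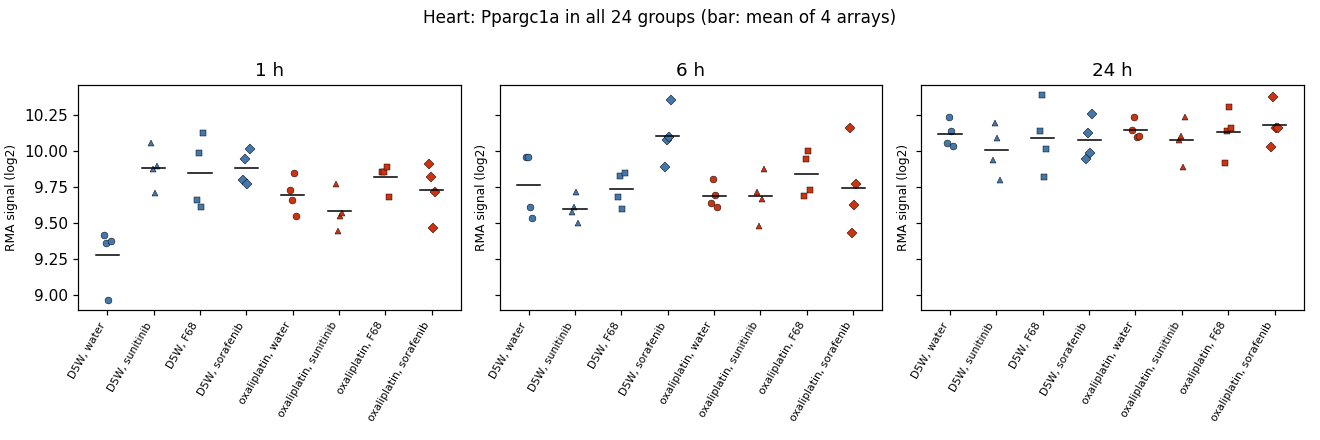
Log2 level of Ppargc1a in the heart by time and treatment, with each point 1 array. At 1 h the 4 arrays of D5W then water stand at 8.97 to 9.42, below the arrays of sunitinib, F68 and oxaliplatin then water.

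At 6 h sorafenib alone called 3 of 5 members in the heart, beside 41.9% of all genes. Irs2 stood at 7.89, 7.96, 7.89 and 7.94 with sorafenib and at 7.28, 7.27, 6.98 and 7.07 with F68, without overlap, a difference of 0.77 ± 0.15 (adjusted p = 3.82e-05). Ppargc1a differed by 0.37 ± 0.12 (adjusted p = 0.00861, lost without D5W then sorafenib replicate 4, 0.28) and Igf1 by 0.39 ± 0.14 (adjusted p = 0.0171, lost without D5W then F68 replicate 4, 0.33, or D5W then sorafenib replicate 3, 0.35). These arrays carry a sign of their own. The dimmest Ppargc1a probe set stood at 8.82, 8.86, 8.99 and 9.06 on the 4 sorafenib arrays and at 8.78, 8.92, 8.84 and 8.75 on the 4 arrays of D5W then water at 24 h, and between 4.49 and 5.85 on all 88 other heart arrays. The remaining probe set stood at 9.37 to 9.86 and at 9.50 to 9.62 on those groups, inside its range of 8.73 to 10.07 on the other 88 arrays. The beta-actin end difference was 0.703, 0.486, 0.666 and 0.767 on the sorafenib arrays and 0.71 to 0.805 on the 24 h water arrays, against a heart median of 0.374. What part this had in the member values was not tested beyond the covariate, under which Igf1 was no longer called (0.24, adjusted p = 0.371). Igf1 was not called either with quantile normalization (0.30, adjusted p = 0.0699) or with 1 of its other probe sets (0.31, adjusted p = 0.0549). At 24 h heart Igf1 differed with sorafenib alone by -0.40 and was not called (adjusted p = 0.0574). Its other probe sets were both called lower there in limma, by -0.52 (adjusted p = 0.0179) and -0.60 (adjusted p = 0.00179). After oxaliplatin the sorafenib difference at 6 h was lower by -0.69 ± 0.22 for Irs2 (adjusted p = 0.0197) and -0.46 ± 0.17 for Ppargc1a (adjusted p = 0.0424), beside 17.1% of all genes. The first was lost without oxaliplatin then F68 replicate 3 (-0.60) and the second without any 1 of 10 arrays (-0.36 to -0.47), with no filter (adjusted p = 0.0505) and with the groups of 6 h alone (adjusted p = 0.0764). The next brightest Ppargc1a probe set gave -0.19 for that contrast (adjusted p = 0.469). In D5W hearts between times, Irs2 (-0.35 ± 0.11), Igf1 (-0.33 ± 0.10) and Noct (-0.41 ± 0.12) were lower at 6 h than at 1 h, beside 36.8% of all genes. That Igf1 call was lost with both other probe sets (-0.22, adjusted p = 0.0869, and -0.20, adjusted p = 0.0963) and with quantile normalization (-0.24, adjusted p = 0.0574). Ppargc1a (0.36 ± 0.08), Irs2 (0.46 ± 0.11) and Igf1 (0.37 ± 0.10) were higher at 24 h than at 6 h, beside 51.8%, and Igf1 was not called with the beta-actin covariate (0.25, adjusted p = 0.185). At 24 h against 1 h Ppargc1a was higher by 0.54 ± 0.08 and Noct lower by -0.49 ± 0.12, beside 49.2%, and each of these 24 h comparisons holds the 4 water arrays just described. The comparison with 1 h also holds the low Ppargc1a group of D5W then water at 1 h. The next brightest probe set of Ppargc1a gave 0.28 (adjusted p = 0.00241) and 0.27 (adjusted p = 0.0034) for 24 h against 6 and 1 h.

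The genes whose pattern over the 24 liver group means was most like a member's are given as a description, with the Pearson correlation among 11486 genes compared; the group means share arrays, times and normalization. For Igfbp1 they were Nfkbiz (0.911), Btg1 (0.843) and Arid5a (0.841). Irs2 shared Nfkbiz (0.814), followed by Enc1 (0.776) and Klf6 (0.765). Pck1 ran most like Mfsd2a (0.771), Tsc22d3 (0.732), which is a glucocorticoid target, and Igfbp1 itself (0.716). Sds ran most like Asl (0.852), the urea cycle enzyme that was also higher at 6 h, then Safb2 (0.838) and Sptan1 (0.833). Foxa2 ran most like Rgs3 (0.929), Map3k1 (0.846) and Atxn7l1 (0.825). Noct ran most like Tmem115 (0.883), Donson (0.866) and the aminotransferase Got1 (0.859), and Igf1 most like Fggy (0.849), Klhl9 and Pepd (both 0.837). Ppargc1a had the weakest matches in liver, with Adcyap1r1 at 0.710, Tcaf1 at 0.650 and Smo at 0.645, and a closer one in heart, where Oat reached 0.946.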

How the data were processed

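RNA of 288 tissue samples from 96 rats was hybridised to Affymetrix Rat Genome arrays, 1 sample an array. The deposited values are log2 signals made by the authors with RMA (background correction, quantile normalization and summary of probes), per the labels; the version, and whether tissues were normalized together, are not given in the sources used here. Of 31099 probe sets, 20826 had 1 gene symbol, 436 several and 9831 none, and 57 were controls. The brightest probe set of each gene and tissue gave 14217 genes. A gene was tested where its log2 signal passed 6 in at least 4 arrays within that tissue: 11618 genes in liver, 12309 in kidney and 11316 in heart. In each tissue limma 3.58.1 (R 4.3.3) fitted the 24 groups together, and contrasts were called at a Benjamini-Hochberg adjusted p of 0.05. The scripts were tested on simulated data. Replicates were separate rats, and the number of arrays limits the precision. The 2 arrays carrying another organ's markers were left out.

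The members and the gene lists were chosen with earlier results of these data known. All 8 members were named in the text, with up to 3 called genes of a list in liver (2 elsewhere) by size of difference, and the 3 most like genes by Pearson correlation of group means. The alternatives were stricter and no filters, quantile normalization, centring, array weights, another variance prior, fits within a time, all arrays as labelled and other probe sets. Further ones were each oral vehicle taken alone (for oxaliplatin over both vehicles), fits without doubted arrays and leaving out each array. The beta-actin end difference as a covariate, and leaving out arrays with another tissue's markers, were chosen after seeing the data.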

Additional observations from a re-analysis of the deposited data

Results flagged for a closer look

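Of 125 sets of 4 arrays of a member, 7 had 1 array far from its group, where chance gives about 1 in 20. That is near the share chance gives, and only groups entering a called comparison were examined, so the 7 are listed as a description. In the liver these were Foxa2 at 10.38 with D5W then F68 at 1 h and Igfbp1 at 9.61 with oxaliplatin then F68 at 6 h. In the kidney they were Igfbp1 at 9.13 with D5W then water at 6 h, Pck1 at 14.35 with D5W then F68 at 6 h and Sds at 8.49 with oxaliplatin then F68 at 1 h. In the heart they were Ppargc1a at 8.97 with D5W then water and Igf1 at 11.18 with D5W then F68, both at 1 h.

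The tested change of the oxaliplatin difference between times passed the threshold in the liver for Igfbp1 (-2.13 from 1 to 6 h, 1.86 from 6 to 24 h) and Sds (-2.10 from 6 to 24 h). In the kidney it did so for Noct (-1.60 from 1 to 6 h, 0.63 from 6 to 24 h, -0.97 from 1 to 24 h) and Igfbp1 (-0.83 from 1 to 6 h, -0.66 from 1 to 24 h). All are log2 differences.

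The tested change of an inhibitor's difference with oxaliplatin passed for sorafenib in the liver at 24 h for Igfbp1 (-2.09), Pck1 (-0.49) and Ppargc1a (-0.94). In the heart at 1 h it passed for sunitinib with Ppargc1a (-0.72) and Igf1 (0.65) and for sorafenib with Igf1 (0.69), and at 6 h for sorafenib with Ppargc1a (-0.46) and Irs2 (-0.69). The Ppargc1a contrast at 1 h holds the low D5W then water group given above.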

How the results depend on the processing

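Of 28 called member differences in the liver, 7 were called under every alternative run other than leaving out 1 array, of 14 in the kidney 7, and of 22 in the heart 12. Counting only those also called without any 1 array, 3, 7 and 10 were. For oxaliplatin these alternatives include each vehicle alone, with fewer arrays. Igfbp1 at 1 h in liver and kidney, liver Sds at 6 h and kidney Noct at 6 h failed only there. The other probe sets include the dimmest of Ppargc1a, above the filter on 0 of 95 liver and 8 of 96 heart arrays. The 1 that reversed was liver Igf1 with sorafenib alone at 24 h, at 0.09 with another of its probe sets. The 8 liver calls after oxaliplatin became 4 with all arrays as labelled and 4 with only the groups of the time, and 4 to 9 without 1 array. Liver calls for sunitinib alone went from 0 to 1 with the stricter filter, 1 with quantile normalization and up to 1 without 1 array. For sorafenib alone 5 became 2 with array weights, 3 with only the groups of the time and 2 to 5 without 1 array. The 3 liver calls for a changed inhibitor difference became 1 with array weights, 1 with only the groups of the time and 1 to 4 without 1 array. The 3 for a changed oxaliplatin difference between times became 1 with all arrays as labelled, 5 with the beta-actin covariate and 1 to 5 without 1 array. In the kidney, 1 call between times became 2 with the stricter filter, 3 with quantile normalization, 2 with trend and robust eBayes, 3 with array weights, 2 without the doubted arrays and up to 2 without 1 array. The 1 kidney call for F68 against water became 0 with all arrays as labelled and 0 without 1 array, and 5 for the oxaliplatin difference between times became 3 with all arrays as labelled, 3 without arrays carrying another tissue's markers and 3 to 6 without 1 array. In the heart, 1 call after oxaliplatin became 0 with the beta-actin covariate and 0 to 2 without 1 array, 2 for sunitinib alone as few as 1 without 1 array, and 1 for sorafenib after oxaliplatin 0 without arrays carrying another tissue's markers and 0 without 1 array. There 1 call for F68 against water became 2 with the beta-actin covariate and up to 2 without 1 array, and 5 for a changed inhibitor difference became 3 with that covariate and 3 to 5 without 1 array. The cause was not tested. No paired analysis was possible, since within a tissue each array came from a different rat. Liver Pck1 and Igf1 and kidney Pck1 lay near the top of the array's range, which limits how far they can be seen to rise.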
